A study of Mus musculus with 21 samples.

Results

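Pancreatic islets of mice that received a high-fat diet (HFD) containing O304 were compared with islets of mice on regular diet (RD), to see which genes still differed from RD when the drug was given. The samples were taken by their titles, 7 HFD-O304 and 7 RD samples, or 14 of the 21 in the series. The other 7 samples, islets of mice on HFD without O304, are given beside them for many of the named genes. O304 activates all forms of AMP-activated protein kinase (AMPK) and was given in the food, with 0.8 mg in each g of HFD. All mice were males of the CBA strain with no engineered allele in the labels, changed diet at 10 weeks of age and were 20 weeks old when the islets were isolated. The results text of the study gives 10 weeks on the diet and its methods give 9. Each sample was RNA of 150 hand-picked islets from a pool of 5 mice, so that the standard errors below rest on the spread between pools. HFD-O304 replicate 1 carries the diet tag HFD in its labels and was placed in the HFD-O304 group by its title. The comparison changes diet and drug together, and their parts cannot be told apart from these 14 samples alone. The hour at which the islets were taken is not given in the sources used here.

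AMPK is an energy sensor that is switched on when AMP rises relative to ATP and that shifts cells from building fat and protein towards burning fuel, among others by easing the entry of long-chain fatty acids into mitochondria. It also phosphorylates proteins of the circadian clock. The clock is a loop in which CLOCK or NPAS2 pairs with BMAL1 (gene Arntl) to switch on the Per, Cry, Nr1d and PAR bZIP (Dbp, Tef, Hlf) genes, the PER and CRY proteins then block the activators, and the REV-ERB proteins of Nr1d1 and Nr1d2 repress Arntl, Npas2 and Nfil3. In islets the clock times insulin secretion. Islets hold insulin-making β-cells, α-, δ- and PP-cells, a dense capillary bed with pericytes, and a few immune cells, and picked islets carry varying amounts of acinar tissue.

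For 5 genes of the results below, the 250 bases before a RefSeq transcription start (GRCm38.p6) are printed first, 5′ to 3′ on the strand of the gene, with 1 kind of short motif in capitals. The 5 are windows that hold such a motif and do not stand for all genes below. Ciart and Tef hold the E-box CACGTG, the site of CLOCK or NPAS2 with BMAL1, Per3 holds the D-box TTATGTAA, the site of DBP, TEF, HLF and NFIL3, and Nfil3 and Cd36 hold the nuclear receptor half-site AGGTCA, read here on the other strand as TGACCT, which is part of the sites of REV-ERB, ROR and PPAR.
Ciart, chr3:95882229-95882478, minus strand: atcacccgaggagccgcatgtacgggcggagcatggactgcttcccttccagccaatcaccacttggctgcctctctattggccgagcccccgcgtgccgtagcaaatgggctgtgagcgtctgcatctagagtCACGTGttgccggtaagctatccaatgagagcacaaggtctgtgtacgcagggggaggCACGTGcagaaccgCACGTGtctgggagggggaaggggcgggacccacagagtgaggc
Tef, chr15:81802423-81802672, plus strand: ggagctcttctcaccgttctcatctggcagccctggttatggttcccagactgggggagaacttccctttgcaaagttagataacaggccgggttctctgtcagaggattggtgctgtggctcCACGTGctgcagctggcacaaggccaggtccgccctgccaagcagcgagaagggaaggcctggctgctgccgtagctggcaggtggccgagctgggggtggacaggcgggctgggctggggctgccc
Per3, chr4:151044666-151044915, minus strand: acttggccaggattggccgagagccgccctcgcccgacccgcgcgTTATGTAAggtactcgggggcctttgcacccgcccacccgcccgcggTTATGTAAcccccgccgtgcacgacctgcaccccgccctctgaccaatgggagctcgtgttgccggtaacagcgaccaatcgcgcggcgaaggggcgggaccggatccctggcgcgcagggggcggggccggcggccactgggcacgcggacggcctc
Nfil3, chr13:52981040-52981289, minus strand: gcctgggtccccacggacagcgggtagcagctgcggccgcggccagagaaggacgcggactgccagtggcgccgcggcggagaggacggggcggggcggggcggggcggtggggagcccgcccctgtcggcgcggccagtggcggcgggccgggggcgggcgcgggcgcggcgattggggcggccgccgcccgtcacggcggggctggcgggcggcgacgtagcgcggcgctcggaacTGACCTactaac
Cd36, chr5:17835897-17836146, minus strand: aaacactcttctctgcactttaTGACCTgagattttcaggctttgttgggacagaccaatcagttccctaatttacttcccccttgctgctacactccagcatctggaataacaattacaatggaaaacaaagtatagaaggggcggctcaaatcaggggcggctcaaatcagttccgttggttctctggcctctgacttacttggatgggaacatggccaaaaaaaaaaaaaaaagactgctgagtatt

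The Ciart window holds 3 E-boxes, of which the nearest ones begin 44 and 58 bases before the start, and the Per3 window holds 2 D-boxes, at 205 and 158 bases. The E-box of Tef begins 127 bases, the half-site of Nfil3 12 bases and that of Cd36 228 bases before the start. The Cd36 start lies inside the span of the gene in the annotation of the files, chr5:17781690-17888801. Among the clock genes below, the windows of Dbp, Nr1d1 and Npas2 held no E-box, D-box or half-site. Arntl held no half-site in the 250 bases before either of its starts.

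Depth was 31746115 to 41559322 read pairs on genes in the RD samples and 13809266 to 48922569 in the HFD-O304 samples, with replicate 2 of HFD-O304 the shallowest. On the first principal component, 54.4% of the variance, HFD-O304 replicate 1 stood at 36.1 and every other sample between -21.2 and 16.4, and the groups overlapped. On the second, 15.3% of the variance, the RD samples lay at 2.8 to 11.7 and the HFD-O304 samples at -9.03 to -3.07. The tissue label was matched by the islet markers. The sum of 8 β-cell markers was 10179100 to 12311900 normalized counts in RD and 9385260 to 11129900 in HFD-O304 samples, and acinar RNA varied within both groups, with sums over 14 markers of 4042 to 341486 and 781 to 115661.

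Of 25902 genes tested with edgeR's quasi-likelihood test, 483 differed at an adjusted p under 0.01, or 1.86% of the genes tested. Genes higher in HFD-O304 numbered 155 (0.598%) and genes lower numbered 328 (1.27%). This balance turned to 66 higher and 40 lower when the level of endothelial markers, some of which fell, was a covariate, a fit chosen after seeing the data. In the fit without it the median log2 fold change over all genes tested was -0.00 and 49.7% of them were positive. Most differences were small. The median of the called genes was 0.54 upward and -0.53 downward on the log2 scale, and 33 higher and 42 lower genes reached a log2 fold change of 1 in size. The mean level was 50 normalized counts or more for 451 called genes, and the 7 HFD-O304 and 7 RD samples of 278 of these did not overlap, where 2.98% of all genes of that level had no overlap.

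The libraries were numbered in a first set, replicates 1 to 4 of each group, and a second, replicates 5 to 7. The first set alone gave 96 genes and the second 247 at the same threshold, and each of the 483 genes kept its sign in both sets, which share their samples with the full comparison. DESeq2 called 952 genes, 351 higher and 601 lower. Leaving out HFD-O304 replicate 5 or RD replicate 3 lowered the count to 289 each.

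**Figure D1:**
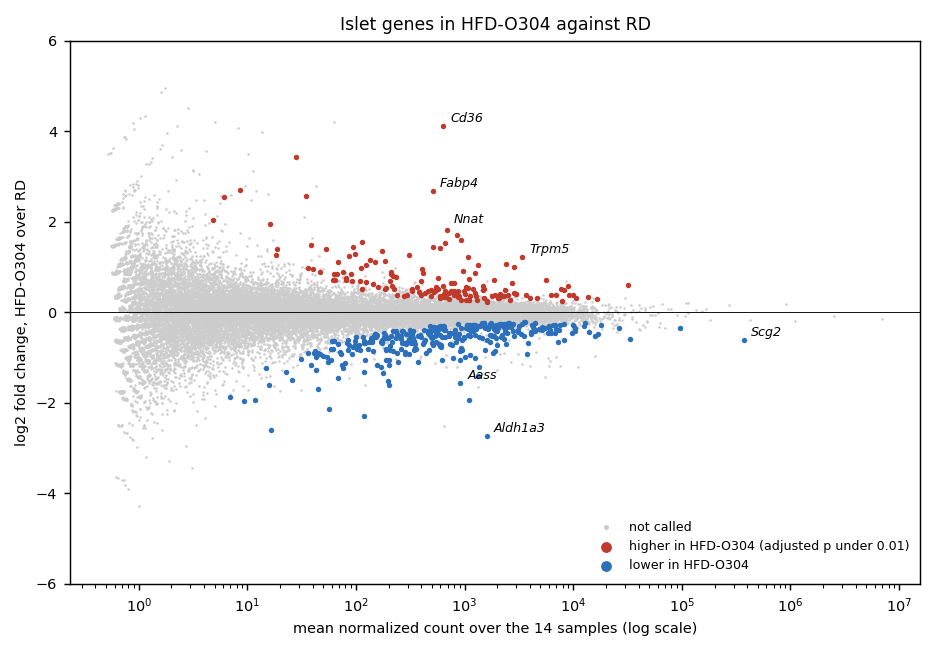
Each dot is 1 of the 25902 genes, with its mean normalized count over the 14 samples on a log axis and its log2 fold change of HFD-O304 over RD on the vertical axis. The 155 called genes above 0 (red) reach 4.12 for Cd36, and the 328 below 0 (blue) include Aldh1a3 at -2.73.

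The difference with the smallest p was a rise of Cd36, the fatty acid translocase of the cell surface (ENSMUSG00000002944). It was measured at 48, 74.4 and 81.2 normalized counts in RD islets as lowest, median and highest sample, and at 944, 1229 and 1413 in HFD-O304 islets. Every HFD-O304 sample lay above every RD sample, and the log2 fold change was 4.12 ± 0.12 (SE, n = 7 and 7, edgeR adjusted p = 5.54e-15), or 17.3-fold. It was 4.03 in the first library set and 4.24 in the second. HFD islets without O304 measured 106.04, 132 and 149 normalized counts, all above the RD samples and all below the HFD-O304 samples.

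Fabp4, a carrier of fatty acids in the cytosol (chr3:10204088-10208576), followed in size. Its normalized counts were 101.4, 138 and 157 in RD, 269, 305 and 336 in HFD and 713, 821 and 1036 in HFD-O304 islets, without overlap between any of the groups. The log2 fold change of HFD-O304 over RD was 2.68 ± 0.10 (edgeR adjusted p = 2.29e-13), that of HFD over RD was 1.16 ± 0.10 (adjusted p = 6.7e-08, in a fit of all 21 samples in which 3.54% of genes passed the threshold).

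Rbp7, a cellular retinol-binding protein, had the third smallest p. It rose from 383, 458 and 549 normalized counts in RD to 1230, 1392 and 1517 in HFD-O304 islets, a log2 fold change of 1.59 ± 0.08 (edgeR adjusted p = 7.52e-11). HFD islets, at 386, 583 and 690, overlapped the RD range. Btnl9, a butyrophilin-like membrane protein, rose by 0.86 ± 0.06 (adjusted p = 3.36e-08) from 798, 918 and 971 to 1448, 1644 and 1746 normalized counts. Npr3, the receptor that clears natriuretic peptides, rose by 1.55 ± 0.18 (adjusted p = 1.56e-05), with 35.2, 53.8 and 96.3 against 103.9, 169 and 214 normalized counts.

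Of the 26 tested genes of fatty acid uptake and storage, 6 rose and 0 fell in HFD-O304 islets (23.1% called), and the median of the 26 log2 fold changes was 0.09. For comparison with this list and each list below, 1.86% of all genes tested passed the threshold. An unadjusted p under 0.05 was found for 15.6% of all genes tested. The first library set alone called 2 and the second 4. Besides Cd36 and Fabp4 the 6 genes called in the full comparison were Gpihbp1, Vldlr, Angptl4 and Plin2. Gpihbp1 holds lipoprotein lipase on capillary walls. It measured 109.97, 153 and 182 normalized counts in RD and 231, 256 and 311 in HFD-O304 islets, without overlap (log2 fold change 0.85 ± 0.11, edgeR adjusted p = 6.8e-05), and HFD islets, at 201, 252 and 315, overlapped HFD-O304 (log2 fold change of HFD-O304 over HFD 0.07, adjusted p = 0.76, in a comparison where 11.9% of genes passed). Vldlr, the receptor of very low density lipoprotein, rose by 0.43 ± 0.07 (adjusted p = 0.0016), with normalized counts of 901, 1060 and 1159 in RD, 558, 651 and 859 in HFD and 1112, 1493 and 1654 in HFD-O304 islets, so that the lowest HFD-O304 samples reached into the RD range.

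Angptl4, an inhibitor of lipoprotein lipase, was low, at 8.54, 17.1 and 47.6 normalized counts in RD and 29.6, 60.9 and 85.6 in HFD-O304 islets (log2 fold change 1.49 ± 0.30, edgeR adjusted p = 0.00509). HFD islets, at 26.1, 46.8 and 92.4, overlapped HFD-O304 (log2 fold change of HFD-O304 over HFD 0.22, adjusted p = 0.68). Plin2, which coats lipid droplets, rose over RD by 0.42 ± 0.08 (adjusted p = 0.00511), and its value over HFD was 0.18 (adjusted p = 0.28). Both calls against RD were close to the threshold. That of Angptl4 was lost without RD replicate 1, 3, 4, 5 or 7 or HFD-O304 replicate 3, 4 or 7, and that of Plin2 without RD replicate 3, 4, 5 or 7 or HFD-O304 replicate 2 or 3, with adjusted p of at most 0.0162 for each gene. The other 20 genes did not pass, Lpl, Pnpla2, Acsl1 and Dgat1 among them.

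Of 28 members of fatty acid oxidation and ketone synthesis 3 rose and 0 fell, with a median of 0.11, and the library sets alone called 0 and 1. Pdk4, a kinase that turns off pyruvate dehydrogenase, rose by 0.90 ± 0.13 (edgeR adjusted p = 0.000231). Its normalized counts were 352, 692 and 882 in RD, 319, 367 and 578 in HFD and 1038, 1230 and 1517 in HFD-O304 islets, so that the HFD-O304 samples lay above every other sample. Cpt1a, the gate of long-chain fatty acids into mitochondria, rose by 0.40 ± 0.08 (adjusted p = 0.00528), from 1490, 1849 and 2114 to 2106, 2478 and 2641. HFD islets measured 2631, 2892 and 3009, and HFD-O304 over HFD, at -0.22 (edgeR adjusted p = 0.045), did not pass. The Cpt1a call was lost without RD replicate 1, 3, 4 or 7 or HFD-O304 replicate 3, 4, 5, 6 or 7, with adjusted p of at most 0.0143.

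None of the regulators of these genes passed. Of 12 genes for PPARs, their RXR partners, PGC-1 and the factors that work with it, 0 passed at an adjusted p under 0.01 by edgeR and 0 by DESeq2, with 2 at an unadjusted p under 0.05 and a median of 0.01. Ppargc1a, the gene for PGC-1α, measured 152, 181 and 195 normalized counts in RD, 45.2, 86.7 and 183 in HFD and 158, 193 and 231 in HFD-O304 islets, and its log2 fold change of HFD-O304 over RD was 0.11 (95% confidence interval -0.09 to 0.31). Among 12 tested AMPK subunits and upstream kinases, only Prkab2, the β2 subunit, passed, at 0.32 ± 0.06 (edgeR adjusted p = 0.00426). That call was lost without RD replicate 3, 4, 5 or 6 or HFD-O304 replicate 1, 5 or 6, with adjusted p of at most 0.0136.

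**Figure D2:**
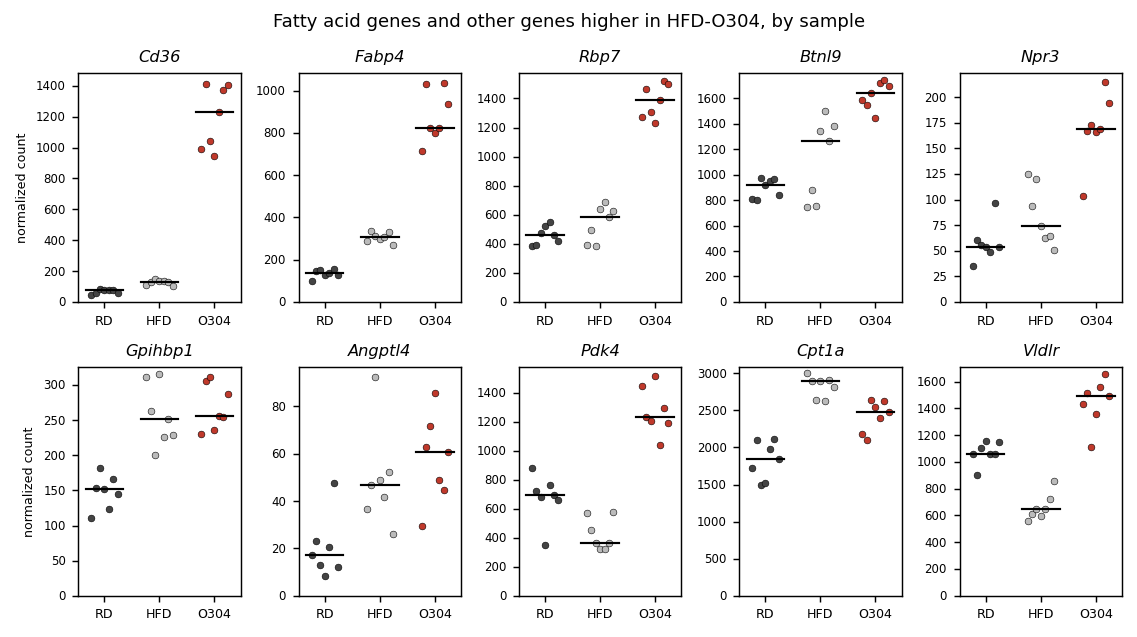
Normalized counts of 10 genes by sample in RD, HFD and HFD-O304 islets (labelled O304), each dot 1 of 7 samples per group and each bar the group median, on linear axes from 0. The HFD-O304 samples stand above all RD samples for Cd36, Fabp4, Rbp7, Btnl9, Npr3, Gpihbp1 and Pdk4, and overlap them for Angptl4, Cpt1a and Vldlr.

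Clock genes held the largest share of called genes among the 29 pathway lists. Of 23 tested members, 8 rose and 3 fell, where 1.86% of all genes tested passed, and the samples of the 2 groups did not overlap for any of these 11 genes, where 1.64% of all genes had no overlap (0.73% higher and 0.915% lower). A fit with any 1 sample left out called 11 or 12 members, the first library set alone called 9 and the second 11. The median over the 23, rises and falls together, was 0.15.

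Of the activator genes Npas2 and Arntl fell and Clock did not pass. Npas2, a partner of BMAL1, measured 265, 287 and 394 normalized counts in RD and 49.1, 89 and 139 in HFD-O304 islets, a log2 fold change of -1.61 ± 0.19 (edgeR adjusted p = 1.66e-05). Arntl, the gene for BMAL1 (chr7:113207465-113314126), fell by 1.06 ± 0.10 on the log2 scale (adjusted p = 8.51e-07), from 1076, 1248 and 1393 to 460, 599 and 724 normalized counts. Clock itself, at 4349, 4525 and 4791 against 4181, 4443 and 4518, did not pass, with a log2 fold change of -0.05 (95% confidence interval -0.14 to 0.04). Nfil3, a repressor that binds the D-box, is a called member added to the named genes after its values were seen. It fell by 1.003 ± 0.11 (adjusted p = 1.34e-05), from 872, 1011 and 1246 to 394, 565 and 624 normalized counts.

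The PAR bZIP genes, whose products bind the same D-box, were all higher. Dbp measured 329, 368 and 501 normalized counts in RD and 920, 1236 and 1913 in HFD-O304 islets, a log2 fold change of 1.70 ± 0.14 (edgeR adjusted p = 1.83e-07). Hlf rose by 1.27 ± 0.14 (adjusted p = 9.51e-06), from 127, 163 and 288 to 356, 426 and 492. Tef rose by 1.08 ± 0.10 (adjusted p = 1.05e-06), from 1204, 1456 and 1954 to 2571, 3394 and 3736.

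Nr1d1, Nr1d2, Per3, Ciart and Bhlhe41, which code for repressors as Nfil3 does, rose. The REV-ERB genes Nr1d1 and Nr1d2 rose by 1.05 ± 0.14 (edgeR adjusted p = 0.000105) and 0.999 ± 0.10 (adjusted p = 4.25e-06). Nr1d1 measured 604, 786 and 1235 normalized counts in RD and 1460, 1772 and 2284 in HFD-O304 islets. Per3, which carries the pair of D-boxes printed above, rose by 1.42 ± 0.16 (adjusted p = 9.77e-06), from 203, 325 and 440 to 587, 841 and 1249. Ciart, a repressor of the activator pair and the gene with 3 E-boxes above, was low and rose by 1.40 ± 0.21 (adjusted p = 0.000284), from 20.3, 29.9 and 32.3 to 39.6, 78.7 and 117.6. Bhlhe41, which competes for E-boxes and was also added after its values were seen, rose by 0.59 ± 0.07 (adjusted p = 4.93e-05).

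Per1 and Per2 did not pass. Per2 measured 815, 983 and 1126 against 1026, 1228 and 1635 normalized counts, with a log2 fold change of 0.39 (95% confidence interval 0.19 to 0.58, edgeR adjusted p = 0.0178), and Per1 had 0.15 (-0.10 to 0.40, adjusted p = 0.621). In HFD islets without O304 none of the 11 genes that passed in HFD-O304 passed against RD. Dbp had a log2 fold change of -0.14 (adjusted p = 0.76), Per3 -0.19 (adjusted p = 0.64), Npas2 -0.46 (adjusted p = 0.09) and Arntl -0.32 (adjusted p = 0.021) in HFD over RD. Whether the time of islet isolation differed between the groups was not tested, since no label gives it.

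**Figure D3:**
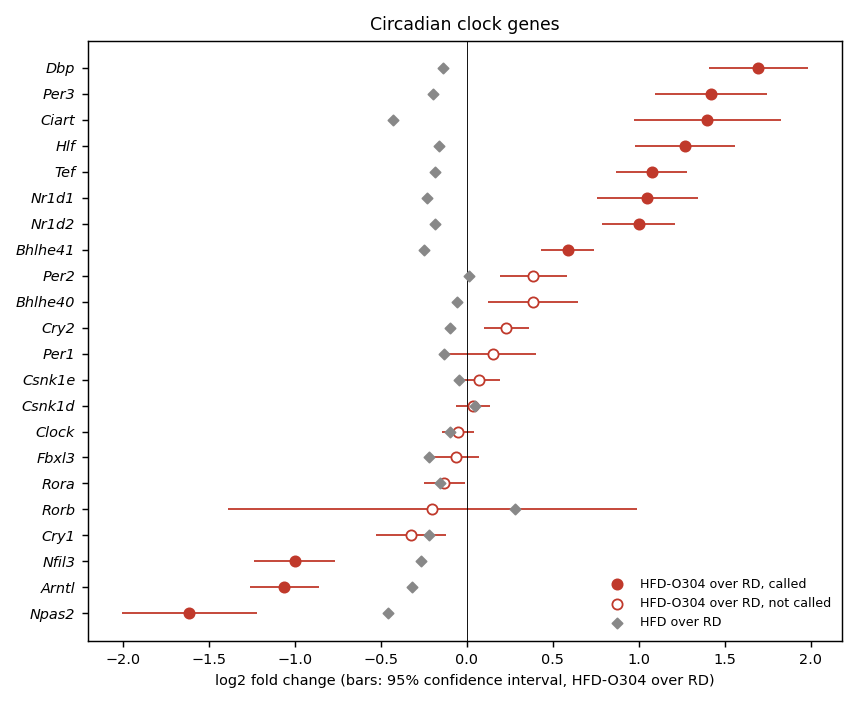
Log2 fold changes over RD for 22 of the 23 tested clock genes, sorted by HFD-O304 (circles with 95% confidence interval, filled where the gene was called) with HFD beside them (diamonds). The 8 called rises reach from 0.59 for Bhlhe41 to 1.70 for Dbp and the 3 called falls from -1.003 for Nfil3 to -1.61 for Npas2, while the HFD values of these 11 genes lie between -0.46 and -0.14.

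Motif shares were counted over the full 300-base windows, on both strands, as a description. Promoters were found for 355 of the 483 called genes, 238 of them lower, and for 13866 of all genes tested. The E-box CACGTG was present for 14.5% of the higher, 7.98% of the lower and 10.6% of all genes with a promoter. Shares for the half-site AGGTCA were 21.4%, 13.9% and 15.8%, and for the D-box 2.56%, 1.26% and 0.772%. Of the 8 called clock genes that rose, 3 held an E-box (Ciart, Tef and Bhlhe41) and 1 a D-box (Per3), and 2 of the 3 that fell, Nfil3 and Arntl, held the half-site. No promoter of the higher or lower genes held the half-site repeated with 1 base between, which only 8 genes of all held, and promoters of Fabp4 and Gpihbp1 were not analysed here.

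Trpm5, Nnat, Npy and Cnr1, set side by side after their values were seen, rose in HFD-O304 islets and had medians below RD in HFD islets. Trpm5, a cation channel that amplifies glucose-driven insulin secretion, measured 1620, 1900 and 2574 normalized counts in RD, 479, 732 and 1408 in HFD and 4023, 4532 and 5746 in HFD-O304 islets. The 3 groups did not overlap, and the log2 fold change of HFD-O304 over RD was 1.22 ± 0.10 (edgeR adjusted p = 1.72e-07) beside -1.18 ± 0.16 for HFD over RD (adjusted p = 5.3e-05). Trpm2, a related channel, rose by 0.50 ± 0.10 (adjusted p = 0.00418), a call lost without HFD-O304 replicate 5, 6 or 7 (adjusted p of at most 0.0143). Of 27 genes of glucose sensing and excitability these were the 2 that rose, and Kcnma1, the BK potassium channel, was the 1 that fell (-0.25 ± 0.05, adjusted p = 0.00562, lost without RD replicate 3 to 7 or HFD-O304 replicate 1, 2, 4, 5 or 7, at most 0.016). Slc2a2, the glucose transporter GLUT2, measured 30233, 35656 and 37115 in RD and 32109, 36704 and 40704 in HFD-O304 islets (log2 fold change 0.06, 95% confidence interval -0.07 to 0.19), beside 12038, 23116 and 27952 in HFD.

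Nnat, neuronatin, a small membrane protein that aids insulin processing, rose by 1.82 ± 0.15 on the log2 scale (edgeR adjusted p = 1.72e-07). Its normalized counts were 190, 333 and 370 in RD, 79.3, 163 and 263 in HFD and 706, 1121 and 1397 in HFD-O304 islets, and the lowest HFD-O304 sample lay above the highest of the others. Npy, neuropeptide Y, rose by 1.53 ± 0.18 (adjusted p = 1.9e-05), at 212, 322 and 504 in RD, 84.4, 122 and 173 in HFD and 596, 932 and 1448 in HFD-O304. Cnr1, the cannabinoid receptor CB1, rose by 1.45 ± 0.19 (adjusted p = 7.92e-05), from 31.4, 42.7 and 78.3 to 110.4, 133 and 203, with HFD at 9.92, 21.7 and 30.4. Its value was 1.95 in the first library set and 0.95 in the second.

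Of 26 islet receptors coupled to G proteins or counted with them, 3 rose and 1 fell. Gpr119, a lipid receptor that raises cAMP, rose by 0.51 ± 0.09 (edgeR adjusted p = 0.00287), and Prlr, the prolactin receptor, which belongs to the cytokine receptors, fell by 0.48 ± 0.08 (adjusted p = 0.000552). Crhr1 rose by 0.88 ± 0.19 (adjusted p = 0.0075), a call lost without RD replicate 2, 3, 4, 6 or 7 or HFD-O304 replicate 1, 5, 6 or 7 (adjusted p of at most 0.0227). Among 22 neuropeptides and gut hormones, Npy, Edn3 (0.48 ± 0.07, adjusted p = 0.000128) and Pyy (0.60 ± 0.12, adjusted p = 0.00473) rose and Cartpt fell. Cartpt, the precursor of the CART peptide, measured 81.1, 156 and 258 in RD, 281, 443 and 734 in HFD and 40.4, 57 and 114.2 in HFD-O304 islets (-1.32 ± 0.26, adjusted p = 0.00404). The Pyy and Cartpt calls each failed without 6 of the samples, RD replicates 2 to 5 and HFD-O304 replicates 5 and 7 for Pyy and RD replicates 2, 3 and 5 and HFD-O304 replicates 5 to 7 for Cartpt (adjusted p of at most 0.0144).

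Msln and Ltbp2 were the remaining genes with the largest increases. Msln, the mesothelial surface protein mesothelin, rose by 1.43 ± 0.16 (edgeR adjusted p = 9.51e-06), from 163, 247 and 358 to 452, 776 and 965 normalized counts, with HFD at 62.3, 103.2 and 253. Ltbp2, a matrix protein of the TGF-β binding family, rose by 1.35 ± 0.12 (adjusted p = 3.89e-07), from 62.2, 104.3 and 113.1 to 225, 255 and 266. Neither gene had an HFD-O304 sample within the RD range.

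None of the main islet hormones and β-cell transcription factors passed. Ins1 had a log2 fold change of -0.09 (95% confidence interval -0.19 to 0.02), Ins2 -0.15 (-0.24 to -0.06, edgeR adjusted p = 0.0668), Iapp, the amylin gene, -0.20 (-0.33 to -0.08, adjusted p = 0.057), Gcg 0.19 (0.06 to 0.32, adjusted p = 0.088), Sst 0.21 (-0.04 to 0.46) and Ppy 0.05 (-0.30 to 0.39). Since Ins1 and Ins2 are close paralogs, only the read pairs that tell them apart were counted. Of 19 β-cell transcription factors, 0 passed by edgeR and 2 by DESeq2, with 6 at an unadjusted p under 0.05, a median of 0.11 and 15 of 19 positive. Isl1 (0.21 ± 0.05, adjusted p = 0.0223) and Neurod1 (0.22 ± 0.06, adjusted p = 0.0258) came closest, Pdx1 had 0.11 (-0.03 to 0.25), Nkx6-1 0.00 (-0.18 to 0.19), Mafa -0.03 (-0.33 to 0.26) and Foxo1 0.06 (-0.07 to 0.19). Ucn3, a marker of mature β-cells, had 0.19 (0.05 to 0.33, adjusted p = 0.142).

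Of 21 tested granule proteins and their processing genes, Nnat rose and 3 fell. Scg2, secretogranin II, one of the abundant granule proteins, measured 391703, 438668 and 520836 normalized counts in RD, 502827, 580703 and 681412 in HFD and 256711, 281090 and 341632 in HFD-O304 islets, without overlap (log2 fold change -0.61 ± 0.07, edgeR adjusted p = 1.66e-05). Vgf, the precursor of several secreted peptides, fell by 1.40 ± 0.27 (adjusted p = 0.00327), from 1087, 1434 and 3635 to 427, 590 and 1353, and Pam, the enzyme that amidates peptide ends, by 0.34 ± 0.07 (adjusted p = 0.00377). The call of Vgf was lost without HFD-O304 replicate 5 or 6 and that of Pam without HFD-O304 replicate 5 or RD replicate 3 (adjusted p of at most 0.0121). Exocytosis genes, 22 tested, had 0 calls by edgeR and 2 by DESeq2, with 7 at an unadjusted p under 0.05 and a median of 0.05.

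Aldh1a3, a retinaldehyde dehydrogenase (chr7:66390890-66427517), had the largest decrease among the named genes. It has been linked to lost β-cell identity, while the study proposes that in these islets it marks early metabolic stress. It measured 1462, 1965 and 5594 normalized counts in RD, 4934, 6781 and 9044 in HFD and 215, 441 and 634 in HFD-O304 islets. All HFD-O304 samples lay below all RD samples, at a log2 fold change of -2.73 ± 0.28 (edgeR adjusted p = 4.25e-06), or 6.65-fold lower, beside 1.26 ± 0.25 for HFD over RD (adjusted p = 0.0016). The values were -2.85 and -2.39 in the library sets. Of the other 19 genes that β-cells normally keep silent, only Mgst1 passed, and it rose (0.72 ± 0.16, adjusted p = 0.0096), a call lost without any 1 of the 7 HFD-O304 samples or RD replicate 1, 3, 5, 6 or 7 (adjusted p of at most 0.0263).

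Several enzymes that break down amino acids fell. Aass, which starts lysine breakdown, measured 1085, 1301 and 1643 normalized counts in RD, 1898, 2670 and 4212 in HFD and 342, 475 and 600 in HFD-O304 islets, so that each group was apart from the others (log2 fold change of HFD-O304 over RD -1.56 ± 0.12, edgeR adjusted p = 7.71e-08). Of 28 tested enzymes for amino acids other than the branched ones, 5 fell and 1 rose, with a median of -0.10. Each library set alone called 2 of the 28 and the fit with the endothelial covariate 1, in which Gldc, Cth, Gcdh, Fah and Glul did not pass. Gldc of the glycine cleavage system fell by 0.81 ± 0.14 (adjusted p = 0.0013), from 60.8, 75.7 and 89 to 35.4, 41.1 and 50.8 normalized counts. Cth, which makes cysteine from cystathionine, fell by 1.16 ± 0.20 (adjusted p = 0.00136), with 26.8, 59.3 and 65.1 normalized counts in RD, 19.8, 24 and 30.1 in HFD and 16.7, 26.1 and 29.6 in HFD-O304 islets.

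Gcdh, which acts further down the lysine route, fell by 0.36 ± 0.07 (edgeR adjusted p = 0.00241), and Fah, the last enzyme of tyrosine breakdown, by 0.40 ± 0.08 (adjusted p = 0.0035). HFD-O304 over HFD was -0.45 for Gcdh (adjusted p = 2.0e-05) and -0.10 for Fah (adjusted p = 0.45). Glul, glutamine synthetase, which builds rather than breaks down, rose by 0.33 ± 0.06 (adjusted p = 0.00425). The Fah call was lost without RD replicate 3 or HFD-O304 replicate 1, 5 or 6 and the Glul call without RD replicate 3 or HFD-O304 replicate 5 or 6 (adjusted p of at most 0.0128). Gnmt, which methylates glycine and is not on the list, fell by 1.16 ± 0.11 (adjusted p = 2.62e-06), from 194, 209 and 238 to 68.6, 91.7 and 123.4, with HFD between at 90.4, 148 and 212.

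Branched-chain amino acid breakdown had smaller fold changes. Of 23 members 5 fell and 0 rose, 19 of 23 had a negative value, and the median was -0.11. The first library set alone called 0 members, the second 1 and the fit with the endothelial covariate 0. Of the 5, Auh (-0.34 ± 0.06, edgeR adjusted p = 0.000897) and Mccc2 (-0.27 ± 0.05, adjusted p = 0.00502) belong to leucine breakdown. Aldh6a1 (-0.38 ± 0.06, adjusted p = 0.00128) and Mut (-0.34 ± 0.06, adjusted p = 0.00133) act outside the leucine route. The fifth was Bcat2, the mitochondrial aminotransferase (-0.57 ± 0.11, adjusted p = 0.00326). Mut, for example, measured 2749, 2928 and 3373 normalized counts in RD, 2434, 2618 and 2850 in HFD and 2155, 2400 and 2552 in HFD-O304 islets. In HFD over RD, Aldh6a1 passed (-0.27, edgeR adjusted p = 0.0087), and Auh and Bcat2 had 0.005 and 0.06. HFD-O304 over HFD did not pass for Aldh6a1 (-0.09, adjusted p = 0.39), Mccc2 (-0.08, 0.42) and Mut (-0.13, 0.10). It passed for Auh (-0.33, 3.4e-05) and Bcat2 (-0.62, 0.00014). The Bcat2 call was lost without RD replicate 3 or HFD-O304 replicate 5, 6 or 7 and that of Mccc2 without RD replicate 3, 4, 5 or 7 or HFD-O304 replicate 1, 4, 6 or 7 (adjusted p of at most 0.0151).

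Stress genes of the endoplasmic reticulum (ER) had mostly negative values and few calls. Of 30, 28 were negative and 18 had an unadjusted p under 0.05, where 15.6% of all genes had one, but only Derl3 and Ero1lb passed the threshold, and the median was -0.24. Derl3, which exports misfolded proteins from the ER, measured 867, 1323 and 2136 normalized counts in RD, 1185, 2768 and 3850 in HFD and 598, 726 and 1109 in HFD-O304 islets (-0.95 ± 0.18, edgeR adjusted p = 0.00322). Ero1lb, the β-cell oxidase that forms disulfide bonds, fell by 0.35 ± 0.07 (adjusted p = 0.00474). The Derl3 call was lost without HFD-O304 replicate 5 or 6 and the Ero1lb call without RD replicate 2, 3 or 4 or HFD-O304 replicate 1, 5, 6 or 7 (adjusted p of at most 0.015). Hspa5, the chaperone BiP, had -0.34 (95% confidence interval -0.61 to -0.08, adjusted p = 0.166). With the endothelial covariate 0 members of the list passed, and with a block for the replicate number 12 passed.

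Among 28 ATF4 targets and amino acid suppliers, 3 fell and 0 rose, with a median of -0.12, and 0 passed with the endothelial covariate. Nupr1, a stress-induced nuclear protein, fell by 0.99 ± 0.16 (edgeR adjusted p = 0.000998), from 990, 1372 and 1779 to 399, 737 and 832 normalized counts, while HFD, at 1077, 1246 and 1573, stayed within the RD range. Phgdh, the first enzyme of serine synthesis, fell by 0.77 ± 0.13 (adjusted p = 0.00145). Pycr1, of proline synthesis, fell by 0.50 ± 0.10 (adjusted p = 0.00394, lost without RD replicate 3 or 4 or HFD-O304 replicate 1, 2, 5 or 6, at most 0.0126).

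DNA replication and mitosis genes had the lowest median of the 29 pathway lists, -0.52 over 30 members, of which 29 were negative, 21 had an unadjusted p under 0.05 and 5 fell at the threshold. Mcm2, of the replicative helicase, measured 553, 578 and 641 normalized counts in RD, 671, 827 and 1353 in HFD and 358, 403 and 439 in HFD-O304 islets, and none of the groups overlapped (-0.55 ± 0.06, edgeR adjusted p = 1.74e-05). Rrm2, of ribonucleotide reductase, fell by 0.87 ± 0.13 (adjusted p = 0.0004), from 133, 191 and 242 to 76.5, 107.1 and 124. Mki67, the gene for the proliferation antigen Ki-67, measured 169, 226 and 297 in RD, 196, 677 and 1221 in HFD and 70.7, 119.003 and 183 in HFD-O304 islets and did not pass (-0.77, 95% confidence interval -1.16 to -0.39, adjusted p = 0.0175).

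E2f1, Cenpe and Mcm5 passed by less, at -0.50 ± 0.10 (edgeR adjusted p = 0.00536), -0.91 ± 0.19 (adjusted p = 0.0054) and -0.53 ± 0.11 (adjusted p = 0.00665). Between 2 and 7 members of this list were called when 1 sample was left out, and only 2 were without HFD-O304 replicate 1, 5, 6 or 7 or RD replicate 3 or 4. The first library set alone called 0 members, the second 5 and the fit with the endothelial covariate 1.

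Serpina7, thyroxine-binding globulin, and Srl, the calcium-binding protein sarcalumenin, had higher levels in HFD and fell in HFD-O304, as did Aldh1a3. Serpina7 measured 1420, 1880 and 2384 normalized counts in RD, 2169, 4514 and 9940 in HFD and 598, 821 and 1142 in HFD-O304 islets (-1.20 ± 0.13, edgeR adjusted p = 6.64e-06), and Srl 199, 255 and 323, then 305, 368 and 467, then 75.8, 106.8 and 121.1 (-1.35 ± 0.12, adjusted p = 8.51e-07). In both genes every HFD-O304 sample lay below every RD sample. The predicted gene Gm2115, outside the naming rule and added after its values were seen, had -1.93 ± 0.21 (adjusted p = 7.14e-06), with 1357, 1597 and 2648, then 2059, 4261 and 6230, then 281, 365 and 874 in the same order.

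**Figure D4:**
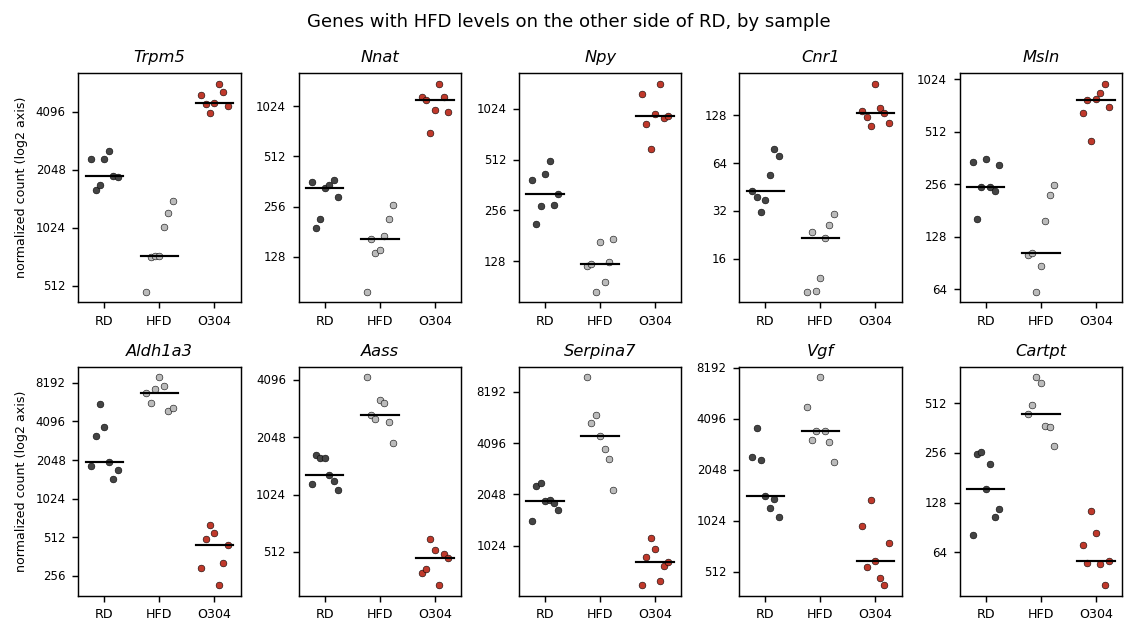
Normalized counts of 10 genes by sample in RD, HFD and HFD-O304 islets (labelled O304) on log2 axes, each dot 1 of 7 samples per group and each bar the group median. The upper 5 genes have HFD medians below and HFD-O304 medians above the RD median, the lower 5 the reverse, and the panels were picked for this after their values were seen.

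Mx1, an antiviral GTPase induced by interferon, fell in HFD-O304 and in HFD. It measured 237, 305 and 352 normalized counts in RD, 92.1, 193 and 220 in HFD and 74.8, 106.1 and 112.7 in HFD-O304 islets (-1.53 ± 0.11, edgeR adjusted p = 3.36e-08, and -0.76 ± 0.15, adjusted p = 0.0022, for HFD over RD). Of 28 tested genes of the interferon response and MHC class I, Mx1 was the 1 that fell and Psmb8, an immunoproteasome subunit, the 1 that rose (0.36 ± 0.06, adjusted p = 0.00181), and the median was 0.00.

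The remaining large decreases were Asb11 (-1.11 ± 0.15, edgeR adjusted p = 8.29e-05), Cngb3, a cyclic nucleotide-gated channel subunit (-1.16 ± 0.18, adjusted p = 0.000412), Nckap5 (-1.09 ± 0.14, adjusted p = 5.54e-05), Col12a1, a collagen (-1.45 ± 0.23, adjusted p = 0.000652), and Sulf1, which trims heparan sulfate (-1.10 ± 0.17, adjusted p = 0.000408). Col12a1 measured 80.1, 99.9 and 128 normalized counts in RD and 22.4, 27.6 and 78.5 in HFD-O304 islets, and Sulf1 54.5, 75.7 and 104.7 against 28.1, 35.5 and 45. No HFD-O304 sample reached the RD range in any of these 5 genes. Cyp26b1, which clears retinoic acid, was the 1 of 25 genes of xenobiotic metabolism that passed, at -2.30 ± 0.48 (adjusted p = 0.00735). Its samples overlapped, at 65.1, 188 and 370 against 10.8, 16.9 and 163, and the call was lost in 12 of 14 fits with 1 sample left out, all but those without RD replicate 4 or HFD-O304 replicate 3 (adjusted p of at most 0.0225). Without HFD-O304 replicate 3, the highest of its group, the log2 fold change was -3.51.

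Some markers of vessel cells fell too. Gpihbp1 of capillary walls and Cd36, Fabp4 and Rbp7, which capillary endothelium also expresses, rose instead (log2 fold changes 0.85, 4.12, 2.68 and 1.59). In bulk islets, fewer cells of a type and less RNA per cell cannot be told apart. Of 12 endothelial markers 3 fell and 0 rose, with a median of -0.22 and 10 of 12 negative, and their summed level was 22586 to 28327 normalized counts in RD and 18388 to 27217 in HFD-O304 samples. Tek, the angiopoietin receptor, measured 825, 923 and 1108 in RD and 442, 572 and 737 in HFD-O304 islets, without overlap (-0.73 ± 0.09, edgeR adjusted p = 7.06e-05). Pecam1 and Emcn had -0.34 ± 0.07 each (adjusted p = 0.00635 and 0.00846), and the calls of both were lost without RD replicate 3, 4, 5 or 6 or HFD-O304 replicate 1, 2, 5, 6 or 7, that of Pecam1 also without RD replicate 2 and that of Emcn also without RD replicate 7 or HFD-O304 replicate 4 (adjusted p of at most 0.0234).

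In the list of 9 stellate cell and fibroblast markers, Rgs5 (-0.66 ± 0.11, edgeR adjusted p = 0.00136) and Acta2, smooth muscle actin (-0.83 ± 0.15, adjusted p = 0.00174), fell, the collagens Col1a1, Col1a2 and Col3a1 did not pass, and the sum over the list was 9579 to 13418 in RD, 11442 to 20921 in HFD and 6261 to 11035 in HFD-O304 samples. The values of the 9 markers were mixed, 4 positive and 5 negative, from -0.83 to 1.11 with a median of -0.21. Only 3 had an unadjusted p under 0.05. Acta2 measured 506, 609 and 746 in RD and 214, 344 and 489 in HFD-O304 islets, without overlap. Myh11, Tpm2 and Itga7, further genes of contractile cells that were named after their values were seen, had -0.79 ± 0.10, -0.81 ± 0.13 and -0.84 ± 0.13 (adjusted p = 7.92e-05, 0.000897 and 0.000345). Their part in the other differences was not tested beyond 2 fits with a marker covariate, both chosen after seeing the data. With the mean log2 level of the stellate cell and fibroblast markers as a covariate 385 genes passed, and with that of the endothelial markers 66 higher and 40 lower genes passed. With the endothelial covariate the called members went from 5 to 0 for branched-chain breakdown, from 6 to 1 for breakdown of other amino acids, from 3 to 0 for ATF4 targets, from 2 to 0 for ER stress, from 5 to 1 for DNA replication, from 6 to 4 for fatty acid uptake, from 3 to 2 for fatty acid oxidation and from 11 to 10 for clock genes. All 483 genes kept their sign with the endothelial covariate. Since 3 of its 12 markers were called themselves, this covariate overlaps with the group difference. Calls kept or lost with it cannot assign a gene to a cell type. Cd36, Fabp4 and Rbp7, which capillary endothelium also expresses, passed with either covariate.

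Markers of other cell types had few calls. The 14 acinar markers had 0 calls by edgeR and by DESeq2 and 0 at an unadjusted p under 0.05, with a median of -1.04, and 497 genes passed with these markers as a covariate. Macrophage markers, 10, and lymphocyte markers, 8, had 0 calls each by edgeR (6 and 1 at an unadjusted p under 0.05, 1 and 1 by DESeq2). Krt19 of 7 duct markers rose by 1.04 ± 0.18 (adjusted p = 0.00117), from 60.6, 70.9 and 132 to 112.3, 170 and 234 normalized counts, and the duct sum was 8092 to 10443 in RD and 9209 to 11652 in HFD-O304 samples. Of 8 α-cell markers 1 rose and 1, Gc, fell (-0.53 ± 0.10, edgeR adjusted p = 0.00259), of 4 δ-cell markers Rbp4 rose (0.31 ± 0.07, adjusted p = 0.00936), of 2 PP-cell markers Pyy rose, and of 4 Schwann cell markers 1 fell. The Rbp4 call was lost without RD replicate 1, 2, 3, 5 or 7 or HFD-O304 replicate 1, 3, 4, 5 or 7 (adjusted p of at most 0.027). Values were positive for 8 of 10 macrophage, 6 of 8 lymphocyte, 7 of 7 duct, 6 of 8 α-cell and 3 of 4 Schwann cell markers. The medians were 0.26, 0.28, 0.21, 0.18 and 0.36 in that order. Of the 4 Schwann cell markers, 3 had an unadjusted p under 0.05. Adipocyte markers were near 0, with 2 of 7 tested, and their sum was at most 42.8 normalized counts in any RD or HFD-O304 sample.

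The large groups of housekeeping genes had few calls. Of 87 cytosolic ribosomal protein genes 0 passed by edgeR and 0 by DESeq2 (2 at an unadjusted p under 0.05), with a median of -0.00. Of 88 nuclear genes of oxidative phosphorylation 2 fell (2.27%, near the 1.86% of all genes tested), the minor subunit gene Cox4i2 (-0.73 ± 0.13, edgeR adjusted p = 0.00159) among them, with a median of -0.01. The 13 mitochondrial genes had 0 calls by edgeR and 1 by DESeq2, 4 at an unadjusted p under 0.05, a median of 0.17 and 13 of 13 positive. Lipid and sterol synthesis had 0 calls of 32 by edgeR and 1 by DESeq2 (4 at an unadjusted p under 0.05, median 0.02), and insulin and IGF signalling 0 of 28 and 3 (10 at an unadjusted p under 0.05, median 0.03).

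In glycolysis and its ChREBP targets, 2 of 28 rose, Txnip, which blocks glucose uptake and binds thioredoxin (0.49 ± 0.10, edgeR adjusted p = 0.00532), and Khk, which phosphorylates fructose (0.34 ± 0.07, adjusted p = 0.00787). Txnip measured 5529, 6964 and 8037 normalized counts in RD, 6859, 14665 and 30496 in HFD and 7672, 9658 and 11309 in HFD-O304 islets. Its call was lost without RD replicate 3, 4, 5 or 7 or HFD-O304 replicate 1, 3 or 4, and that of Khk in 12 of 14 such fits, all but those without RD replicate 1 or HFD-O304 replicate 6 (adjusted p of at most 0.0226). Of 29 antioxidant genes Gstm1 rose (0.50 ± 0.10, adjusted p = 0.00473, lost without RD replicate 1 or 3 or HFD-O304 replicate 5, 6 or 7, at most 0.0145), and of 28 autophagy and lysosome genes Wipi1 fell (-0.46 ± 0.09, adjusted p = 0.00338). These single calls were 3.45% and 3.57% of their lists, where 1.86% of all genes tested passed. Heat shock genes, 19, had 0 calls by edgeR and by DESeq2 with 2 at an unadjusted p under 0.05, although all 19 values were positive and their median was 0.24. With a block for the replicate number 4 of them passed by edgeR. Immediate early genes, 24, had 0 calls by edgeR and 1 by DESeq2, with 6 at an unadjusted p under 0.05 and a median of -0.15.

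**Figure D5:**
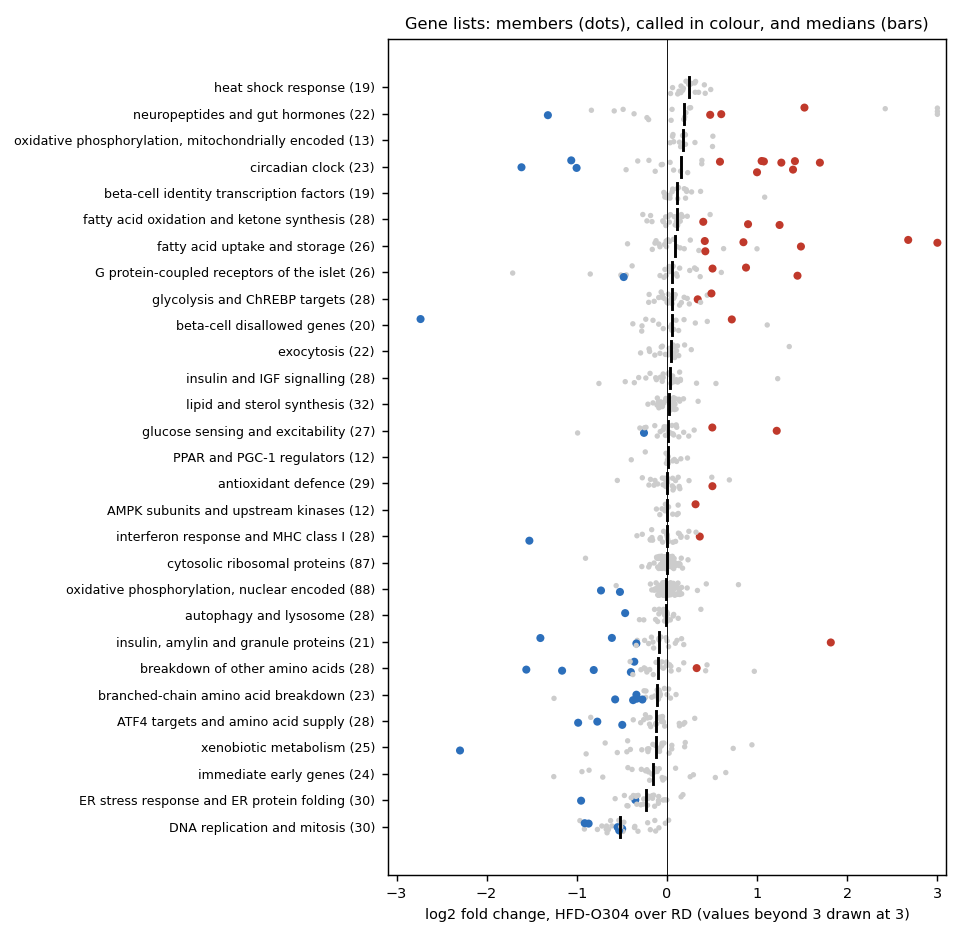
Log2 fold changes of HFD-O304 over RD for the tested members of 29 gene lists (number in brackets), with called members in red (higher) or blue (lower), other members in grey and the list median as a bar. The called member farthest to the right is Cd36, whose value of 4.12 is drawn at 3, while the median is lowest for DNA replication and mitosis, at -0.52.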

How the data were processed

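RNA-seq was measured in islets of 21 samples, of which 14 enter the comparison. The authors aligned 50-nt paired reads with STAR to GRCm38 with Ensembl 96 annotation and deposited the gene count tables of each sample. The read counts are raw, and the column for the strand of the library was used, since it held 28.8 to 36.3 times the counts of the other one. Which column the authors used is not given in the sources used here. Rows that name no gene, 19.0% to 24.9% of read pairs, were left out.

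Genes with a sum of at least 10 over the 14 samples were scaled by TMM and tested with edgeR 4.0.16 (R 4.3.3, quasi-likelihood, Benjamini-Hochberg adjusted p under 0.01). HFD values come from a fit of all 21 samples. Normalized counts are counts divided by scaled library size. DESeq2 1.42.0, other filters and scalings, covariates, library sets and leaving out single samples were alternatives. On simulated counts with 200 changed genes the test called 153, all of them changed genes (57 of 103 at a log2 change of 0.5 and 96 of 97 at 1), and on counts without change 0. The simulated counts were drawn independently for each gene and sample, without library sets, shared replicate numbers or varying cell mixture. They therefore do not give the rate of false calls in the real pools. The p-values weigh the group difference against the spread between pools of mice. The named genes are the 12 largest increases and decreases among genes whose mean reached 50 normalized counts, called members of each list by p (at most 6), a fixed set of islet genes, and the 5 smallest p, and genes outside this rule are marked. A few genes are counted in the lists and not reported here by name. Members and lists were chosen with earlier results of these data known.

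The replicate numbers recur in each group. Same-numbered RD and HFD-O304 samples correlated above 0.1 in 6 of 7 pairs (mean 0.297, lowest -0.143, highest 0.702). No source says that the numbers mark a shared origin, and the samples were not treated as pairs in the main fit. With a block for the number 845 genes passed in place of 483.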

Additional observations from a re-analysis of the deposited data

Results flagged for a closer look

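In 18 of 224 groups of 7 samples, the gap of 1 extreme sample to its neighbour took up more than 0.568 of the range. Chance flags about 1 group in 20. In RD the share of the range was 0.59 for Npr3, 0.631 for Angptl4 and 0.629 for Hlf, each with replicate 6 highest, 0.607 for Vldlr, 0.586 for Glul and 0.59 for Trpm2, each with replicate 2 lowest, and 0.575 for Gm2115 with replicate 2 highest. It was 0.596 for Ciart (replicate 1 lowest), 0.583 for Pdk4 (replicate 4 lowest) and 0.7 for Auh (replicate 5 highest).

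In HFD-O304 the read pairs on genes had 0.589, with replicate 2 lowest at 13809266. Replicate 4 was highest for Cnr1 (0.655), Col12a1 (0.72) and Mgst1 (0.734), and replicate 3 for Pycr1 (0.584) and Cyp26b1 (0.831). Replicate 5 was lowest for Mx1 (0.619) and replicate 7 for Clock (0.687).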

How the results depend on the processing

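Of the 483 genes (155 higher, 328 lower), the count became 952 with DESeq2 (351 higher, 601 lower), 96 in replicates 1 to 4 alone (39 and 57), 247 in replicates 5 to 7 alone (88 and 159), and 1003 at an adjusted p under 0.05 (338 and 665). With the endothelial marker covariate, added after seeing the data, 66 higher and 40 lower genes passed, and all 483 genes kept their sign. Leaving out 1 sample gave 289 to 498 genes, 95 to 153 higher and 185 to 345 lower, with the lowest total without HFD-O304 replicate 5 or RD replicate 3. With a block for the replicate number 845 genes passed (276 and 569). By deviations from the group means, 2 of 7 HFD-O304 samples correlated best with their own number, 4 ranked it second and replicate 3 sixth. No source says that the numbers mark a shared origin, and 1 pair of 7 was not above 0.1, so the block was kept as an alternative. With it 12 instead of 2 ER stress genes, 4 instead of 0 heat shock genes and 9 instead of 4 granule genes passed. The other settings stayed within 1.5 times the count.

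Genes that were not called changed sign. Ppy was -0.13 in replicates 5 to 7 and between -0.099 and 0.13 with 1 sample left out (below 0 without HFD-O304 replicate 4 or RD replicate 2 or 3). Mafa was 0.26 in replicates 5 to 7 and between -0.12 and 0.058 with 1 sample left out (above 0 without HFD-O304 replicate 2, 4 or 6). Nkx6-1 was -0.00548 with the acinar covariate, -0.036 in replicates 1 to 4, and between -0.039 and 0.058 with 1 sample left out (below 0 without HFD-O304 replicate 3 or 7 or RD replicate 3, 4, 5 or 7). Ppargc1a was -0.0078 in replicates 5 to 7. The cause was not tested. Depth limits the genes with few reads, such as Angptl4 and Ciart.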
